A study of Mus musculus with 22 samples.

Results

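The iPSC-OB change minus the ESC-OB change sets 2 courses of differentiation side by side, gene by gene. The course from induced pluripotent stem cells (iPSC, somatic cells returned to a pluripotent state) to osteoblast cultures (iPSC-OB) was compared with the course from embryonic stem cells (ESC) to osteoblast cultures (ESC-OB). For each gene the authors' log2 change from ESC to ESC-OB was subtracted from their log2 change from iPSC to iPSC-OB, and the error was the square root of the summed squared standard errors. Genes were matched by symbol, and those with a base mean (the authors' mean normalised count over the libraries of a fit) of at least 10 in both tables were tested. These were 13768 of the 20206 genes listed in the series, out of 18632 genes present in both tables. Near the minimum, Pbld1 (9.993) and Gm15787 (9.998) fell just outside and Gm3258 (10.002) and A630089N07Rik (10.018) just inside.

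The labels name 3 samples each of ESC and ESC-OB and 2 each of iPSC and iPSC-OB, all mouse. Both lines hold the Col2.3GFP reporter, that is, green fluorescent protein under part of a type I collagen promoter, active in cells of the osteoblast lineage. ESC and ESC-OB were at passage 20 to 30, and iPSC and iPSC-OB at passage 10 to 20. The labels name a line of each kind, so source, line and passage go together and cannot be told apart. Undifferentiated cells grew on fibroblast feeders or in serum-free medium without them. For both OB groups, embryoid bodies floated for 6 days without LIF, the MEK inhibitor PD0325901 or the GSK3 inhibitor CHIR99021, and were given 0.1 µM retinoic acid between day 3 and day 5. They were then plated in osteogenic medium and had differentiated for 35 to 40 days in all. Scarce RNA was handled with a low-input kit. Which medium and kit each sample had, and whether replicates came from separate cultures, the labels do not say, so p-values reflect only how these samples vary.

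Pluripotent cells silence lineage genes and divide quickly, and embryoid bodies form cells of all germ layers when the factors that hold pluripotency are withdrawn. Osteogenic medium then favours the osteoblast lineage, which depends on the transcription factors Runx2 and Sp7, lays down a matrix rich in type I collagen and mineralises it. Cells of other lineages can persist in such cultures, and in bulk RNA fewer cells of a type and less RNA per cell cannot be told apart.

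Each value below is 1 of 2 quantities. A difference is the iPSC-OB change minus the ESC-OB change on the log2 scale, with its standard error after ±, tested by a Wald z test with Benjamini-Hochberg adjustment over all 13768 genes and called when the adjusted p was under 0.05. A level is a group's estimated CPM (read counts scaled to a total of 1000000), worked out from the base mean, the fold change and the number of libraries. The authors normalised the 2 tables separately, so a comparison of levels between sources carries no test. The floor, worth 3 reads summed over a group's libraries, was 0.102 CPM in ESC, 0.114 in ESC-OB, 0.0886 in iPSC and 0.116 in iPSC-OB, and it covers counting error only. For the 549 tested genes with a group under its floor, the fitted change depends on the authors' model and is no bound.

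The libraries behind the fits held 4.49 to 19.5 M reads for ESC, 6.72 to 11.5 for ESC-OB, 10.4 to 13.03 for iPSC and 10.1 to 17.7 for iPSC-OB. The fit appears to hold 3 iPSC libraries, while the labels name 2. Summed levels of 5 stem cell markers (Pou5f1, Nanog, Sox2, Esrrb and Zfp42) were 3704 CPM in ESC and 1802 in iPSC, and 33.6 in ESC-OB and 47.0 in iPSC-OB. Summed levels of 8 osteoblast markers were 320 CPM in ESC, 5247 in ESC-OB, 845 in iPSC and 2873 in iPSC-OB. Alpl, which pluripotent cells also express, made up 308 of the 320 CPM in ESC, and the 7 markers without it summed to 12.5 CPM in ESC, 5237 in ESC-OB, 732 in iPSC and 2862 in iPSC-OB. Sp7 and Bglap (osteocalcin) were low in both OB groups, Sp7 at 0.737 CPM in ESC-OB and 0.623 in iPSC-OB, Bglap at 0.830 and 1.16. Neither had the base mean needed for the test of the difference.

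Of the 13768 genes, 4900 differed between the courses. The iPSC-OB change was higher for 1996 (14.5%) and lower for 2904 (21.1%), 35.6% in all, and the median difference was -0.01. By the adjusted p in the authors' deposited tables, 41.8% of the same genes rose and 37.1% fell in the ESC course, against 30.2% and 27.3% in the iPSC course. Here and below, such counts also depend on the precision of each fit, with 9 libraries in the ESC fit and 5 in the iPSC fit. Fewer calls from iPSC thus need not mean less change. Direction was mostly shared: 3551 genes rose in both of the authors' deposited tables and 3169 fell in both. In the authors' deposited tables, 214 genes rose from ESC and fell from iPSC and 143 did the opposite. Pearson's r between both changes was 0.76 across genes, which are not independent replicates. Changes in the authors' deposited tables spread less from iPSC (SD 1.80) than from ESC (SD 2.86). The largest standard error was 1.29 from iPSC against 1.89 from ESC, but the median one was larger from iPSC, 0.317 against 0.226. Whether the authors' model compressed one table more than the other was not tested. Differences were also taken after multiplying the ESC-OB changes by the slope of 0.63 that equalises both spreads, called scaling below. Scaling left 3647 genes past the threshold, of which 2645 were among the 4900, 14 of them with the opposite sign. Of 62 lists compared, 32 had a median difference of -1 or lower, of which 23 stayed at -1 or lower after scaling and 4 came out above 0.

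**Figure D1:**
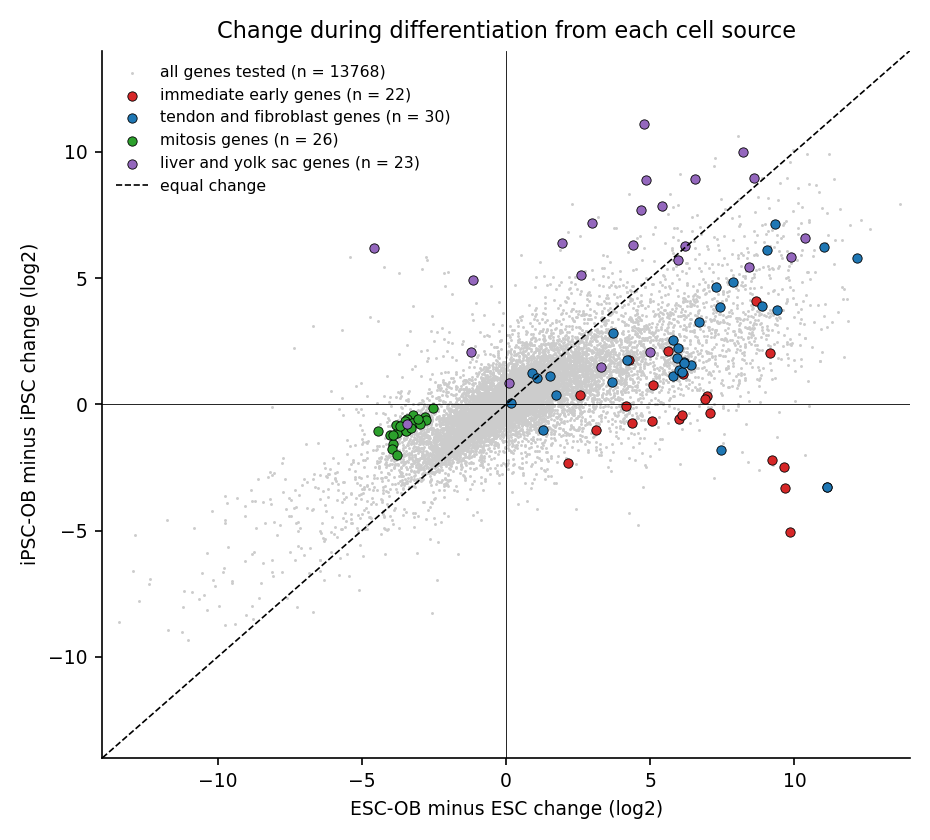
Change from ESC to ESC-OB (horizontal axis, log2) and from iPSC to iPSC-OB (vertical axis, log2), 1 point per gene, with 4 gene lists in colour and the line of equal change dashed. Immediate early genes and tendon and fibroblast genes lie mostly right of and below the line, mitosis genes lie above it among genes that fell, and the liver and yolk sac genes lie mostly above it among genes that rose.

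A difference between the courses equals the gap between the OB groups minus the gap between the stem cells, up to a constant from normalisation. For the 2904 genes with a lower iPSC-OB change, the gap between stem cells was the larger of the 2 for 2147 (73.9%), with a median start gap of 1.75 log2 units (iPSC above ESC) and a median end gap of -0.71. For the 1996 genes with a higher iPSC-OB change it was the larger for 1044 (52.3%), with medians of -0.69 at the start and 0.62 at the end. Among the lower iPSC-OB changes the start gap was thus the larger more often than the end gap, whatever its sign. Genes chosen by a lower difference tend to have a positive start gap by construction, so these values only describe how the difference divides. Over all genes tested the median gaps were 0.08 at the start and -0.02 at the end. All of a list of fibroblast feeder markers were higher in iPSC: 8 of 8 (Col3a1, Dcn, Lum, Thy1, Postn, Vim, Col6a1 and Pdgfrb) stood above their ESC level, summed 647 against 261 CPM, a ratio of 2.48. Within that list Dcn and Lum were at 1.92 and 0.314 CPM in iPSC, and Vim, which many cells express, made up 469 of the 647. Higher levels in iPSC were not particular to that list. They were also seen for 7 of 8 osteoblast markers (ratio of the sums 2.64), 28 of 30 tendon and fibroblast genes and 22 of 22 immediate early genes. The part of feeder cells in the gaps was not tested.

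**Figure D2:**
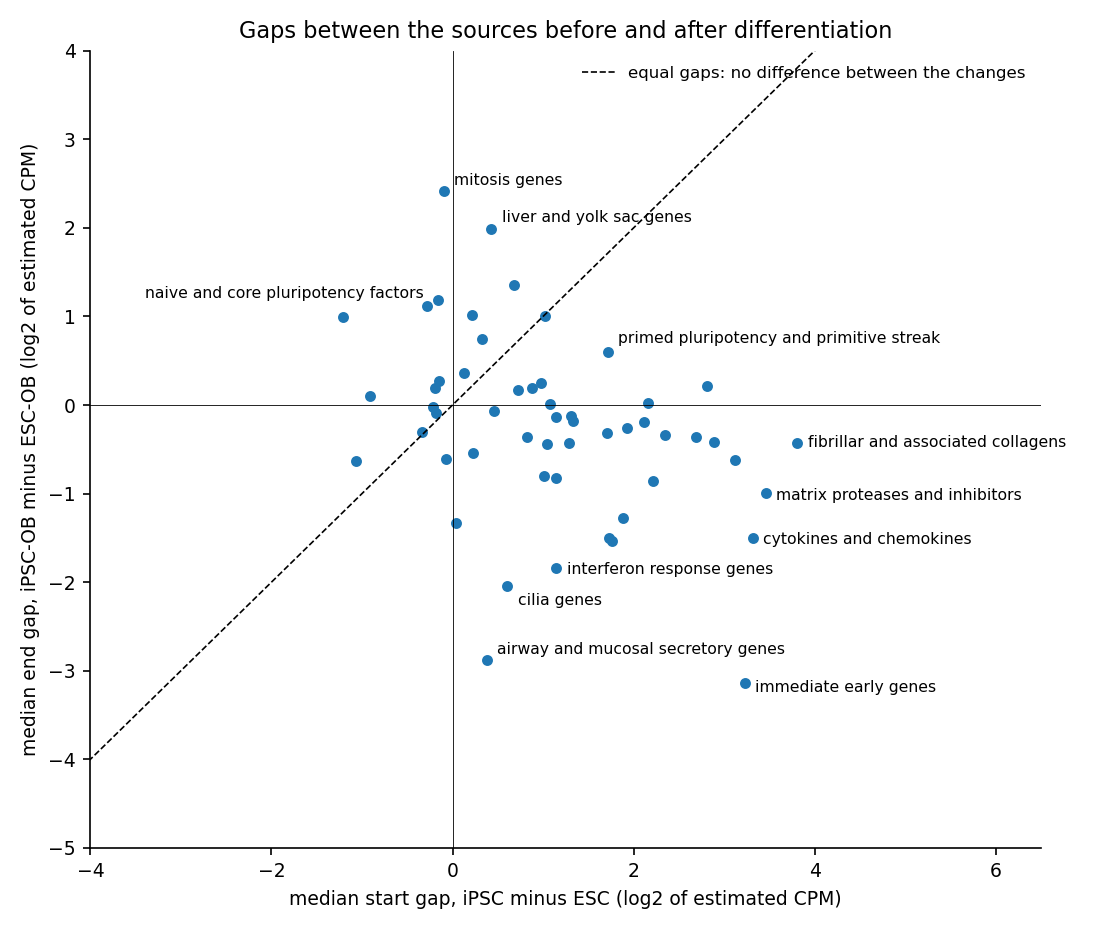
Median gap between the sources before differentiation (iPSC minus ESC, horizontal axis) and after it (iPSC-OB minus ESC-OB, vertical axis), both log2 of estimated CPM, 1 point for each gene list with at least 10 members tested; distance below the dashed line is a lower iPSC-OB change. Fibrillar collagens (3.81 at the start, -0.43 at the end) lie far right near 0 on the vertical axis, and immediate early genes lie both far right and far down (3.23 and -3.14).

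Osteoblast matrix and mineralization genes lay further apart before differentiation than after it, with a median gap (iPSC over ESC) of 2.69 log2 units at the start and -0.36 at the end. Of 23 tested members of 26, the iPSC-OB change was lower for 15, higher for 1 and not past the threshold for 7, and the median difference was -3.55 beside -0.01 for all genes tested (11 lower and a median of -1.50 after scaling). Col1a2, a chain of type I collagen, was at 0.669 CPM in ESC and 2434 in ESC-OB, and at 314 in iPSC and 1205 in iPSC-OB. Its difference was -9.84 ± 0.69 (Wald adjusted p = 6.79e-43). The partner chain Col1a1 went from 10.3 to 2587 CPM and from 405 to 1283, a difference of -6.25 ± 0.56 (Wald adjusted p = 1.13e-26). Both type I collagen genes thus rose in each course and stood higher in iPSC than in ESC. Cdh11, the cadherin of mesenchymal cells, had a difference of -9.54 ± 0.98 (0.119 to 182 CPM from ESC, 40.9 to 80.7 from iPSC), and Col5a2, a collagen that joins type I fibrils, one of -8.69 ± 0.62.

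Several genes of mineralising osteoblasts did not pass the threshold. Alpl, the alkaline phosphatase that mineralisation needs and that pluripotent cells also express, went from 308 to 10.9 CPM and from 113 to 11.5, a difference of 1.57 ± 0.92 (Wald adjusted p = 0.18), or -0.25 after scaling. Spp1 (osteopontin) had a difference of 0.48 ± 0.69 (-0.11 after scaling), and Ibsp (bone sialoprotein) one of 0.34 ± 2.03, an error too large to place it. Sparc, the collagen-binding protein osteonectin, went from 538 to 7574 CPM and from 332 to 9807, a difference of 1.12 ± 0.53 that missed the threshold (Wald adjusted p = 0.0851) and passed it after scaling (2.500). Pth1r, the parathyroid hormone receptor, differed by -3.07 ± 0.64 with OB levels of 171 CPM from ESC and 243 from iPSC, and its sign turned after scaling (0.10).

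Osteoblast transcription factors had 7 lower and 1 higher of 13 tested (20 listed), with a median difference of -2.01. Runx2, required for the lineage, was at 0.105 CPM in ESC and 25.5 in ESC-OB, and at 2.71 in iPSC and 16.3 in iPSC-OB, a difference of -5.29 ± 0.93 (Wald adjusted p = 2.1e-07). Runx1, its relative of blood and skeletal progenitors, differed by -5.26 ± 0.44, with OB levels of 107 CPM from ESC and 33.2 from iPSC. Osteocyte genes were mixed, 4 lower and 2 higher of 12 tested (16 listed), or 3 and 3 after scaling. Their median of -0.91 was -0.14 after scaling. Dmp1, a matrix protein of osteocytes, had a higher iPSC-OB change (3.65 ± 1.41) at levels of at most 2.78 CPM in any group, and Cd44, a hyaluronan receptor, a lower one (-5.79 ± 0.58). Cartilage genes had 6 lower and 1 higher of 17 tested (23 listed), or 4 and 2 after scaling, when their median of -1.67 became -0.39. Among all genes tested, 21.1% were lower and 14.5% higher. Sox9, the regulator of cartilage formation, went from under the floor in ESC to 37.9 CPM and from 4.46 to 20.7, a difference of -6.62 ± 1.13. Col2a1, the main cartilage collagen, had the higher change, 2.27 ± 0.72 (21.2 to 9.38 CPM from ESC, 17.5 to 36.1 from iPSC).

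**Figure D3:**
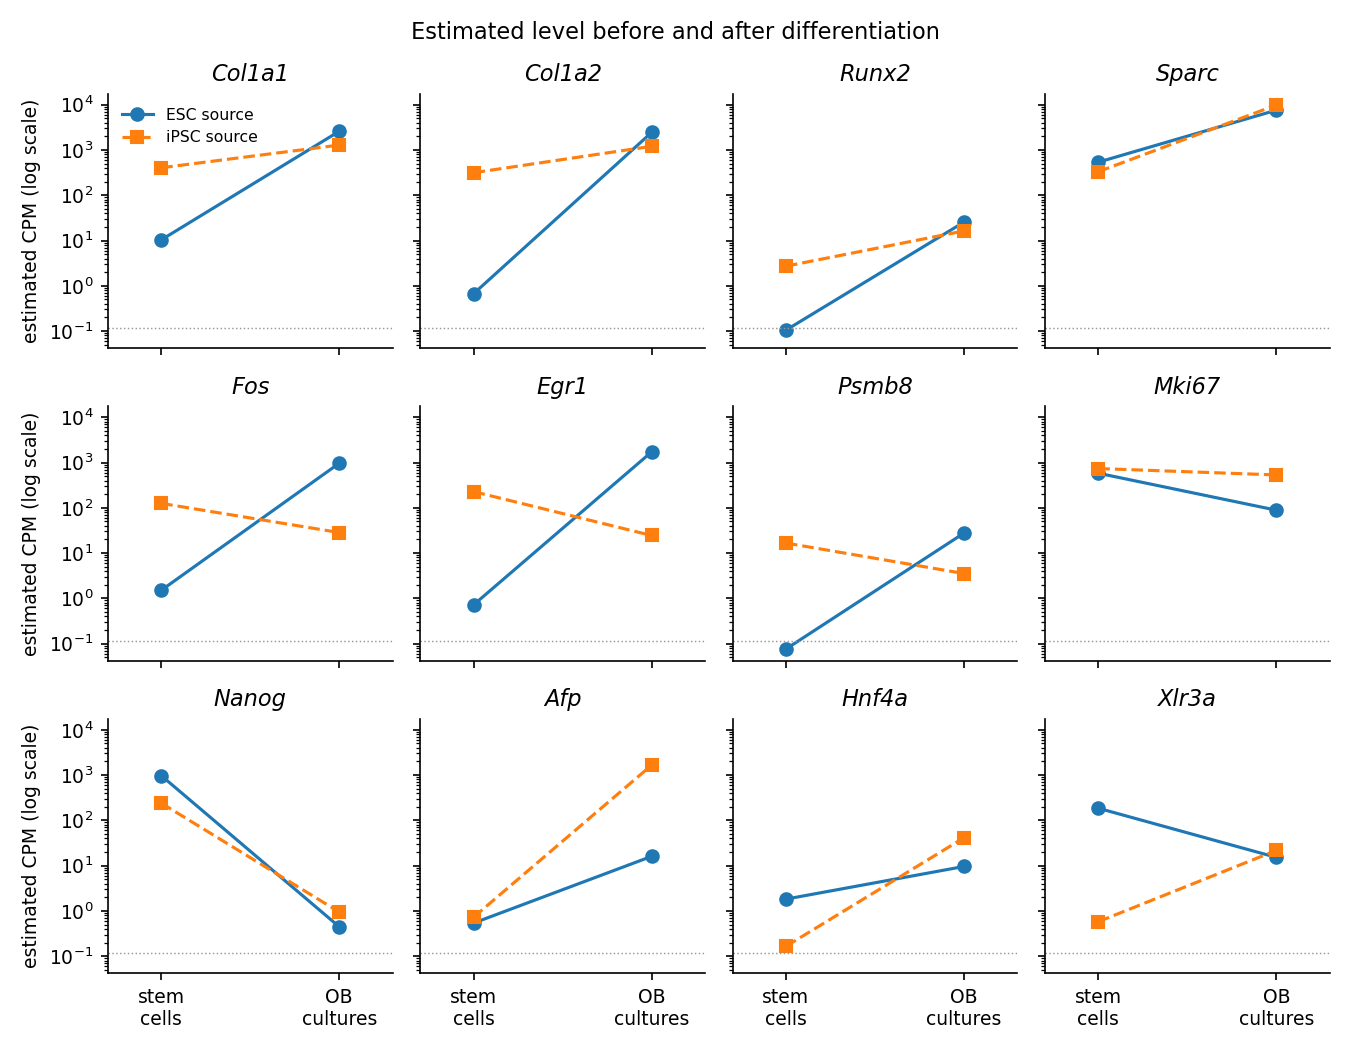
Estimated level in stem cells and OB cultures (CPM, log scale) of 12 genes, with the ESC source as circles and solid lines and the iPSC source as squares and dashed lines; the dotted line is the highest floor of the 4 groups, and no error is drawn because the tables hold no values per sample. Type I collagen lines meet near the top from different starts, Fos, Egr1 and Psmb8 lines cross, Mki67 and Nanog fall less far from iPSC, and Afp parts after a shared start.

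The wider connective tissue programme followed the collagens. Of 24 fibrillar and associated collagens, all tested, 14 were lower and 1 higher, with a median difference of -3.98 (-3.83 with groups under the floor set to it, -1.95 after scaling). Tendon and fibroblast genes were lower for 23 of 30 and higher for 0 (median -3.49, or -3.07 with such groups set to the floor). After scaling 11 were lower and 1 higher, with a median of -1.25. Matrix proteases and their inhibitors were lower for 20 of 26 tested and higher for 0 (median -4.12, or -3.89 so treated), and after scaling 11 were lower and the median was -1.70. Tnc, the matrix protein tenascin C, moved in opposite directions, from 0.337 to 63.4 CPM from ESC and from 317 to 93.5 from iPSC, a difference of -9.26 ± 0.61 (Wald adjusted p = 8.31e-49). Dcn (decorin), which organises collagen fibrils, went from under the floor to 317 CPM and from 1.92 to 111, a difference of -6.36 ± 1.07. Timp2, an inhibitor of matrix metalloproteases, ended at like levels, 895 CPM in ESC-OB and 762 in iPSC-OB, after 2.10 in ESC and 73.4 in iPSC (difference -5.31 ± 0.46).

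Genes that build and crosslink collagen were lower for 16 and higher for 3 of 29, but their median of -1.39 turned to 0.28 after scaling. Lox and Loxl2, enzymes that crosslink collagen, differed by -8.58 ± 0.66 and -6.09 ± 0.50. Crtap and Lepre1, partners in collagen prolyl hydroxylation, went the other way at 1.4999 ± 0.36 and 1.56 ± 0.45. Basement membrane genes were lower for 14 and higher for 3 of 23 with a median of -2.39, which was -0.77 after scaling (8 lower, 4 higher) and -0.74 among genes whose base mean reached 100. The 3 were Lama1, Nid1 and Hspg2, which encode a laminin chain, nidogen and perlecan. Lama1 went from 125 to 6895 CPM from ESC and from 32.9 to 10847 from iPSC, a difference of 2.63 ± 0.68 (Wald adjusted p = 0.000659). Nid1 differed by 2.08 ± 0.60 and Hspg2 by 1.29 ± 0.47. Lama2, Lama4 and Col4a5, chains of other laminins and of type IV collagen, differed by -5.39 ± 0.73, -5.72 ± 0.66 and -6.96 ± 0.81.

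Immediate early genes, which cells transcribe within minutes of a growth signal or stress, gave the lowest list median, -6.12. All 22 listed were tested and all 22 had a lower iPSC-OB change, beside 21.1% of all genes tested, and 20 of them kept the call after scaling. By the authors' deposited tables all 22 rose from ESC to ESC-OB, while from iPSC 5 rose and 8 fell. At the start 22 of 22 were higher in iPSC than in ESC, and at the end 22 of 22 were lower in iPSC-OB than in ESC-OB. Fosb, a subunit of the AP-1 factor, was at 0.520 CPM in ESC, 520 in ESC-OB, 115 in iPSC and 3.57 in iPSC-OB, a difference of -14.93 ± 0.53 (Wald adjusted p = 6.07e-170). Egr1, a zinc finger factor induced by serum, was at 0.720, 1717, 228 and 24.5 CPM in the same order, a difference of -14.39 ± 0.42 (Wald adjusted p = 2.58e-249). Fos, another AP-1 subunit, was at 1.51, 965, 125 and 28.4 CPM, a difference of -11.41 ± 0.36. Egr1 also stands in the tendon list.

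Feedback genes of ERK signalling, the pathway that PD0325901 blocks, were lower for 12 and higher for 1 of 17 tested (18 listed), with a median of -2.47. The phosphatase genes Dusp1, Dusp5 and Dusp6 differed by -5.81 ± 0.32, -5.39 ± 0.41 and -4.84 ± 0.39. Dusp6 was at 8.44 CPM in ESC and 86.1 in ESC-OB, and at 128 in iPSC and 44.2 in iPSC-OB. Etv5, an ETS factor of pluripotent cells, was the member with the higher change (1.87 ± 0.51), and its sign turned after scaling (-0.19).

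Mitosis genes formed the opposite pattern, with close starts and unequal ends. All 26 mitosis genes had a higher iPSC-OB change, beside 14.5% of all genes tested, with a median of 2.53, a median start gap of -0.10 and a median end gap of 2.42 log2 units. After scaling 21 of the 26 were past the threshold. In the authors' deposited tables all 26 fell from ESC, and 11 fell from iPSC. Mki67, which encodes the proliferation antigen Ki-67, was at 581 CPM in ESC and 88.7 in ESC-OB, and at 737 in iPSC and 532 in iPSC-OB, a difference of 2.29 ± 0.43 (Wald adjusted p = 9.29e-07). Nusap1, a spindle protein gene, went from 145 to 7.18 CPM and from 113 to 56.8 (3.40 ± 0.48). Birc5 (survivin) and Ttk, a checkpoint kinase, differed by 2.85 ± 0.50 and 2.83 ± 0.45. DNA replication genes were higher for 22 and lower for 0 of 26, with a median of 1.36, but after scaling 1 was higher and 1 lower. At the start 2 of these 26 were higher in iPSC than in ESC, with a median start gap of -0.28 and an end gap of 1.12. Mcm10, an initiation factor, Rrm2, a subunit of ribonucleotide reductase, and Pola1, a polymerase subunit, differed by 2.71 ± 0.41, 2.21 ± 0.31 and 2.15 ± 0.31, none of them past the threshold after scaling.

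Cell cycle inhibitors and D cyclins were mixed. Of 18 CDK inhibitors, D cyclins and related genes, 3 were higher and 4 lower. These shares were close to those of all genes tested (14.5% and 21.1%). Cdkn2a, which encodes p16 and p19ARF in mouse, went from 19.103 to 8.92 CPM from ESC and from 7.12 to 33.0 from iPSC, a difference of 3.36 ± 0.51 (Wald adjusted p = 9.86e-10). Ccnd2, a D cyclin, differed by -4.34 ± 0.45, with 612 CPM in ESC-OB and 659 in iPSC-OB. Replication-dependent histone genes were higher for 7 and lower for 1 of 23 tested (34 listed) with a median of 0.57, and 0 higher and 2 lower after scaling, when the median was -0.38. Such histone RNAs lack the usual poly(A) tail, and the labels describe purified mRNA.

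Promoters of the mitosis list share letters that the measurements did not use. Mitotic promoters are known for the cell cycle homology region TTTGAA and for CCAAT boxes. In windows of 250 bases before to 50 after the RefSeq start (GRCm38.p6), searched on both strands, TTTGAA was present for 16 of 22 mitosis genes with a window (72.7%), against 11.4% of 10254 windows of tested genes. CCAAT was present for 17 of 22 (77.3%), against 38.9%. A match is a description of the window and not a bound site. The windows of Plk1, a mitotic kinase (chr7:122159185-122159484, + strand, difference 2.80 ± 0.52), and Cdc20, an activator of the anaphase complex (chr4:118437294-118437593, - strand, 1.77 ± 0.46), are shown because each holds both motifs, with the matches in capitals; both genes were chosen after their values were seen.
Plk1: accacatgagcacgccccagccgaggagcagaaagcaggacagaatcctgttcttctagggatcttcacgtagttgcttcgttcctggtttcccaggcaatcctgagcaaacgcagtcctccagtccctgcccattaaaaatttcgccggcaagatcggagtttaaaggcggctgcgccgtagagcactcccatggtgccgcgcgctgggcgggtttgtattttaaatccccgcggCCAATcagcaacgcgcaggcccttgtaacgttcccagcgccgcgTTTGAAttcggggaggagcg
Cdc20: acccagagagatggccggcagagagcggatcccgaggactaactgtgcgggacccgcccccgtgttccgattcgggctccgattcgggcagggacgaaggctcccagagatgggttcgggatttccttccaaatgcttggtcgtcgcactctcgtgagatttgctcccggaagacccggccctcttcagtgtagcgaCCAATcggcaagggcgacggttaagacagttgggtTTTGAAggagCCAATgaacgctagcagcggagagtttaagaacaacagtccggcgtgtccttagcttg

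Interferon response genes were lower for 22 and higher for 2 of 28 tested (30 listed), with a median difference of -3.56. These genes are switched on by type I and type II interferons through STAT and IRF factors. Both gaps were present, with a median of 1.15 at the start and -1.84 at the end. Gbp2, an interferon-induced GTPase, went from 0.172 to 27.2 CPM from ESC and from 58.3 to 7.92 from iPSC, a difference of -10.13 ± 0.74 (Wald adjusted p = 7.86e-40). Oasl2 and Isg15, an oligoadenylate synthetase-like protein and a ubiquitin-like modifier, differed by -8.31 ± 0.68 and -7.68 ± 1.09, Isg15 from a level under the floor in ESC. Xaf1 and Stat2 were the members with higher iPSC-OB changes, 2.65 ± 0.56 and 1.10 ± 0.44. After scaling 11 were lower and 2 higher, with a median of -1.31. Without scaling, the median was -1.13 among the 11 members whose base mean reached 100, of which 7 were lower and 2 higher.

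Antigen presentation genes were lower for 11 and higher for 0 of 13 tested (20 listed), with a median of -2.89. Psmb8, a subunit of the immunoproteasome, went from under the floor in ESC to 27.6 CPM and from 16.6 to 3.54 from iPSC, a difference of -10.69 ± 0.97 (Wald adjusted p = 6.69e-26). Tap2, which carries peptides to class I molecules, differed by -6.37 ± 0.48, from 0.967 to 51.0 CPM and from 13.8 to 8.43. Cytokines and chemokines were lower for 9 and higher for 2 of 12 tested (26 listed), with Cxcl1, a neutrophil chemokine, at 86.5 CPM in ESC-OB and 1.04 in iPSC-OB (difference -9.77 ± 1.24). Complement genes were lower for 10 and higher for 3 of 18 tested, and their median of -1.79 was 0.00 after scaling. C3, the central component, rose to 1918 CPM in ESC-OB and 284 in iPSC-OB, a difference of -5.71 ± 0.87 that was not past the threshold after scaling.

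The interferon promoters hold the core of the interferon-stimulated response element (ISRE core: GAAA, any 2 bases, GAAA) more often than promoters at large. The motif, searched on both strands of the same windows, was present for 14 of 23 genes (60.9%) against 2.80% of 10254. The windows of Gbp2 (chr3:142620413-142620712, + strand) and Ifit1 (chr19:34640639-34640938, + strand), an antiviral gene that differed by -6.58 ± 1.12, are shown with the matches in capitals, here read on the strand opposite the gene. Ifit1 was chosen after its value was seen.
Gbp2: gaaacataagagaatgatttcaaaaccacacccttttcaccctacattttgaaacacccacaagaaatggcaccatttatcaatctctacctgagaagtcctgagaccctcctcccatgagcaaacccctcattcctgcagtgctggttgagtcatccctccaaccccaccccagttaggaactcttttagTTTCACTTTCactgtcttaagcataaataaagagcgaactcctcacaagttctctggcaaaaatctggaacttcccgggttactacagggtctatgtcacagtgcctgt
Ifit1: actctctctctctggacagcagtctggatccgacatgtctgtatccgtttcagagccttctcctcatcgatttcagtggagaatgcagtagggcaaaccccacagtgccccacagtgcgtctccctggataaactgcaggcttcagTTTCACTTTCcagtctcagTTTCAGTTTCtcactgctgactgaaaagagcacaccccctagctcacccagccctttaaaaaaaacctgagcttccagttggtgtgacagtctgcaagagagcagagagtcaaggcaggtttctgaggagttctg
For immediate early genes the same search found TGACGTCA, a cyclic AMP response element, for 1 of 16 windows (6.25%, against 3.27%) and the CArG box, bound by serum response factor, for 1 of 16 (6.25%, against 1.35%).

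Naive and core pluripotency factors were higher for 20 and lower for 1 of 29, with a median of 1.99 (1.89 with groups under the floor set to it), but this direction turned after scaling (median -0.37, 4 higher and 8 lower). Of the 29, 28 fell from ESC and 24 fell from iPSC in the authors' deposited tables. Nanog went from 976 to 0.447 CPM and from 241 to 0.944, a difference of 3.15 ± 0.55 (Wald adjusted p = 1.72e-07) that was -0.997 after scaling. Pou5f1 went from 1003 to 2.39 CPM and from 811 to 3.33, a difference of 0.84 ± 0.33, or -2.43 after scaling, and Esrrb, an orphan receptor of naive cells, differed by 2.94 ± 0.56, or -1.01 after scaling. Sox2 did not pass the threshold (0.86 ± 0.70, or -0.72 after scaling), and Zfp42 differed by 3.07 ± 0.72, not past it after scaling. Tfcp2l1 and Tbx3, factors of the naive state that epithelia and mesoderm also use, differed by 4.08 ± 0.58 and 4.71 ± 0.46. Tfcp2l1 was at 1328 CPM in ESC and 102 in ESC-OB, and at 103 in iPSC and 129 in iPSC-OB. Klf2, a naive factor that ERK signalling represses, was the member with the lower change (-2.41 ± 0.46).

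Primed pluripotency and primitive streak genes were lower for 7 and higher for 2 of 14 tested (25 listed), with a median of -1.47 and a median start gap of 1.72. T (brachyury), the streak and mesoderm factor, was at 5.99 CPM in ESC and 1.09 in ESC-OB, and at 74.5 in iPSC and 0.251 in iPSC-OB, a difference of -5.70 ± 1.16 (Wald adjusted p = 9.04e-06). Pou3f1, an epiblast factor, went from 1.80 to 3.15 CPM and from 64.9 to 4.68 (-4.55 ± 0.48). Foxa2, of endoderm and node, went from 0.143 to 46.9 CPM and from 17.2 to 41.0 (-7.05 ± 0.84). Nodal and Lefty2, a ligand and its antagonist, had higher changes of 5.14 ± 1.07 and 4.82 ± 1.25, both with ESC-OB levels under the floor. Nodal was not past the threshold after scaling and Lefty2 turned (-0.16). Dnmt3b, the de novo methyltransferase of primed cells, was at 110 CPM in ESC and 1203 in iPSC, and at 8.90 in ESC-OB and 41.7 in iPSC-OB (-1.18 ± 0.39). Germ cell genes were higher for 4 and lower for 2 of 16 tested, together close to the 35.6% called of all genes tested. Their median of 0.88 was -0.33 after scaling. Taf7l, a germ cell transcription factor subunit, went from 9.67 to 3.69 CPM and from 2.24 to 13.2 (4.0009 ± 0.99).

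Several liver and yolk sac genes had a higher iPSC-OB change. Of 23 tested members of 25, 9 were higher, 1 was lower and 13 did not pass, with a median difference of 2.38 (2.25 with groups under the floor set to it). After scaling 15 were higher and 0 lower. Afp, the fetal serum protein of yolk sac and liver, went from 0.539 to 16.0 CPM from ESC and from 0.727 to 1659 from iPSC, a difference of 6.32 ± 1.36 (Wald adjusted p = 2.88e-05). Apom and Apoc2, apolipoprotein genes, differed by 10.76 ± 1.17 and 6.10 ± 1.06, and Apom stood at 3.71 CPM in ESC, 0.166 in ESC-OB, 0.504 in iPSC and 37.8 in iPSC-OB. Rbp4, which carries retinol, went from 0.415 to 11.4 CPM and from 1.34 to 284 (3.00 ± 0.77). Alb, the serum albumin of liver, was the member with the lower change, at 60.5 CPM in ESC-OB and 3.79 in iPSC-OB (-4.04 ± 1.67), and it was not past the threshold after scaling or with a t reference distribution.

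Endoderm transcription factors were split, 4 higher and 7 lower of 17 tested (21 listed), and this balance turned to 7 higher and 3 lower after scaling. Hnf4a, a factor of visceral endoderm and liver, had a higher change of 5.62 ± 0.82, going from 1.82 to 9.59 CPM and from 0.165 to 41.3. Gata6, an endoderm and heart factor, had a lower change (-4.83 ± 0.72) with close end levels, 190 CPM in ESC-OB and 144 in iPSC-OB. Lama1, described with the basement membrane, is a laminin chain that parietal endoderm secretes.

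Epithelial genes went the other way. Simple and stratified epithelial genes were lower for 18 and higher for 1 of 27, with a median of -3.04 (-1.24 and 12 lower after scaling). Krt8 and Krt19, keratins of simple epithelia, differed by -5.23 ± 0.27 and -4.81 ± 0.42, Krt8 ending at 568 CPM in ESC-OB and 616 in iPSC-OB from 3.73 and 157. Esrp1, an epithelial splicing factor, went from 1.67 to 47.1 CPM and from 144 to 39.5 (-6.63 ± 0.53). Airway and mucosal secretory genes were lower for 7 and higher for 0 of 11 tested (25 listed), and 1 lower and 1 higher after scaling. Ltf (lactoferrin) and Bpifa1, secreted defence proteins, reached 394 and 218 CPM in ESC-OB and 19.07 and 2.83 in iPSC-OB, differences of -4.82 ± 1.17 and -7.00 ± 1.62 that were not past the threshold after scaling. Cilia genes were lower for 7 and higher for 0 of 12 tested, and Foxj1, the factor for motile cilia, went from 0.702 to 27.7 CPM and from 2.24 to 5.27 (-4.01 ± 0.71).

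Muscle and vessel genes differed by member. Cardiac muscle genes were lower for 10 and higher for 2 of 25 tested (28 listed), with a median of -1.52 that was 0.58 after scaling. Myh6, the atrial myosin heavy chain, reached 815 CPM in ESC-OB and 83.6 in iPSC-OB (difference -4.97 ± 0.68), while Tnni1, the slow troponin I, went from 6.19 to 29.5 CPM and from 0.178 to 21.0 (4.68 ± 0.84). Smooth muscle and pericyte genes were lower for 12 and higher for 0 of 16 tested, with a median of -3.29 (-1.61 and 8 lower after scaling), a start gap of 2.16 and an end gap of 0.02. Acta2, smooth muscle actin, was at 0.376 CPM in ESC and 168 in iPSC before 178 and 448 in the OB groups (-7.41 ± 0.64). Endothelial genes were lower for 7 and higher for 4 of 13 tested, with a median of -1.56 that was 0.49 after scaling. Sox7, of endothelium and primitive endoderm, had the higher change of 4.07 ± 0.84, and Flt1, a VEGF receptor, the lower one of -5.93 ± 0.54. Macrophage and osteoclast genes were lower for 7 and higher for 3 of 13 tested (25 listed), or 4 and 4 after scaling, with Lyz2 (lysozyme) lower and Laptm5, a lysosomal protein of blood cells, higher (-8.28 ± 1.27 and 5.00 ± 0.81).

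Neuronal genes were higher for 3 and lower for 1 of 13 tested (26 listed), and neural progenitor and glial genes were higher for 2 and lower for 4 of 15 tested, shares close to the 35.6% of all genes. The neuronal median of 0.43 was -0.27 after scaling. Nes, which encodes the progenitor filament nestin, differed by -2.55 ± 0.54 (25.8 to 48.2 CPM from ESC, 176 to 54.0 from iPSC). Adipocyte genes were lower for 5 and higher for 1 of 11 tested, with a median of -0.88 that was 0.11 after scaling. Cebpb, an early adipogenic factor, differed by -2.52 ± 0.49.

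Signalling genes past the threshold were mostly lower in the iPSC-OB change. Of all genes tested, 21.1% were lower and 14.5% higher. BMP ligands, receptors and antagonists were lower for 20 and higher for 0 of 27 tested (29 listed), with a median of -4.08 (-3.81 with groups under the floor set to it), or -2.08 with 12 lower and 2 higher after scaling. Bmp2, an osteoinductive ligand, went from 0.150 to 49.7 CPM and from 6.10 to 33.3 (-5.88 ± 0.80, Wald adjusted p = 5.43e-12), and Id1, a target of BMP receptors, from 1.304 to 58.6 CPM and from 33.5 to 37.1 (-5.29 ± 0.51). TGF-beta genes were lower for 16 and higher for 0 of 20, and for 11 and 0 after scaling. Inhba, the activin A subunit, was under the floor in ESC and at 14.8 CPM in ESC-OB, and at 25.8 in iPSC and 15.4 in iPSC-OB (-9.12 ± 1.25). Tgfb2, a ligand, differed by -5.99 ± 0.80. Wnt genes and antagonists were lower for 16 and higher for 1 of 24 tested (34 listed), or 13 and 2 after scaling. Lgr5, an R-spondin receptor, was at -8.20 ± 1.21 and the antagonist Sfrp1 at 2.17 ± 0.52. Notch genes were lower for 10 and higher for 1 of 17 tested, or 8 and 0 after scaling. Hes1, a Notch target, went from 37.7 to 313 CPM and from 50.6 to 23.9 (-4.08 ± 0.52). Hedgehog genes were lower for 4, higher for 0 and not past the threshold for 9 of 13 tested (median -0.64). Gas1, a co-receptor, was at -3.87 ± 0.74.

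Insulin-like growth factor and retinoic acid genes followed. The former were lower for 10 and higher for 3 of 17 (median -2.80, or -2.55 with groups under the floor set to it), and lower for 6 and higher for 2 after scaling (median -0.48). The 3 were the RNA-binding proteins Igf2bp1, Igf2bp2 and Igf2bp3 (1.54 ± 0.32, 1.02 ± 0.38 and 1.39 ± 0.34), of which Igf2bp1 and Igf2bp3 were not past the threshold after scaling. Igf2, the fetal growth factor, went from 1.86 to 2463 CPM and from 65.6 to 1926 (-5.44 ± 0.54, Wald adjusted p = 1.22e-21). Retinoic acid genes were lower for 9 and higher for 1 of 20 tested, with a median of -1.57 that was -0.27 after scaling. Cyp26a1, which degrades retinoic acid and is induced by it, was at 0.208 CPM in ESC and 33.2 in iPSC before 51.9 and 66.3 in the OB groups (-6.91 ± 0.86). Mesenchyme patterning factors were lower for 14 and higher for 1 of 23 tested (36 listed), or 8 and 2 after scaling, with Prrx1, a limb and face mesenchyme factor, at 89.0 CPM in ESC-OB and 82.4 in iPSC-OB after a level under the floor in ESC and 23.4 in iPSC (-8.20 ± 1.08). Tbx3 was the member with the higher change.

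Hox genes, which mark position along the body axis, were mostly too low to test, and 7 of the 39 listed had the base mean needed. Hoxb2 and Hoxb3 differed by -4.37 ± 1.38 and -5.25 ± 1.5004, both under the floor in ESC and not past the threshold after scaling, with end levels of 3.33 and 4.27 CPM (Hoxb2) and 5.04 and 5.70 CPM (Hoxb3). Hoxc4 differed by 5.79 ± 1.09 (3.63 to 0.362 CPM from ESC, 0.490 to 2.60 from iPSC). Hoxa3, Hoxb4 and Hoxc9 did not pass, with values of -1.22 ± 1.08 (near 0 after scaling), 0.71 ± 0.92 and 0.91 ± 1.12. Of 27 untested members with a level in both OB groups, 24 were higher in iPSC-OB and 3 lower, with no test and with many levels near or under the floor. Several missed the base mean minimum in the ESC fit only (Hoxb8 1.53, against 21.8 in the iPSC fit). Hoxa2 and Hoxc13 missed it in the iPSC fit only, so the filter itself favours gaps between the sources among untested genes. Hoxc6 and Hoxc8 were at 8.15 and 6.23 CPM in iPSC-OB and at 0.389 and 0.244 CPM in ESC-OB. Hoxb8 was at 3.95 CPM in iPSC-OB and 0.366 in ESC-OB, and Hoxb9 at 4.69 and 0.131. At the start these genes stood higher in iPSC too. Hoxc6 and Hoxc8 were at 1.69 and 2.36 CPM in iPSC, against 0.191 and 0.143 in ESC. Hoxb8 and Hoxb9 were at 0.539 and 3.18 CPM in iPSC, against 0.0205 (under the floor) and 1.31 in ESC. In the other direction Hoxa2 was at 1.17 CPM in iPSC-OB and 2.29 in ESC-OB, and Hoxc13 at 1.22 and 1.69, after 0.546 CPM in iPSC and 10.9 in ESC. None of the 9 Hox D genes was tested.

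Imprinted genes, expressed from 1 parental copy, were read as totals and not by allele. In the Dlk1-Dio3 region 5 of 7 were higher and 1 lower. The maternally expressed RNAs Meg3, Rian and Mirg were higher at 1.45 ± 0.60, 1.96 ± 0.54 and 2.97 ± 0.78. Rian was at 108 CPM in ESC and 26.2 in iPSC, and at 233 in ESC-OB and 211 in iPSC-OB, and Mirg at 5.84 and 0.808, then 8.08 and 8.47. Dio3 and Rtl1 were higher too (4.50 ± 1.10 and 2.37 ± 0.78), Dlk1 was lower (-4.12 ± 0.67, not past the threshold after scaling), and Begain was at -0.94 ± 0.80. Meg3 was at 83.7 CPM in ESC and 33.3 in iPSC, and at 449 in ESC-OB and 471 in iPSC-OB. All 3 RNAs were thus lower in iPSC than in ESC and close in the OB groups. Silencing of the maternal RNAs of this region is a known variation among mouse iPSC lines, and whether it took place here was not tested.

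Around H19 and Igf2, 2 were higher and 4 lower of 11 tested (14 listed). H19 went from 7.28 to 2898 CPM and from 147 to 3112 (-4.18 ± 0.51), Cdkn1c, a CDK inhibitor, differed by -1.60 ± 0.62 (lost after scaling), and Osbpl5, a lipid transfer protein, by -6.05 ± 0.65. Kcnq1ot1, the antisense RNA of the region, and Cd81 were higher (2.09 ± 0.39 and 0.72 ± 0.19). Of 30 other imprinted genes tested (36 listed), 6 were higher and 8 lower, and after scaling 7 were higher and 3 lower. The higher ones were Nespas (3.87 ± 0.72), Mkrn3 (2.65 ± 0.78), Peg12 (2.65 ± 1.02), Plagl1 (2.14 ± 0.42), Mcts2 (1.53 ± 0.40) and Peg10 (0.85 ± 0.33). The lower ones were Dcn, Nap1l5 (-3.001 ± 0.99), Nnat (-2.54 ± 1.01), Zim1 (-2.53 ± 0.69, 0.04 after scaling), Gnas (-2.39 ± 0.19), Peg13 (-1.81 ± 0.55), Grb10 (-1.21 ± 0.41) and Peg3 (-0.81 ± 0.29, 0.27 after scaling). The other 16 did not pass, among them Igf2r (-0.72 ± 0.34), Sgce (-0.06 ± 0.44, but 1.29 and past the threshold after scaling) and Mest (0.15 ± 0.74). Nespas overlaps Gnas on the opposite strand, and Kcnq1ot1 and Airn overlap other genes, so their counts are uncertain without strand.

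Genes on the X chromosome had a higher iPSC-OB change more often than autosomal genes, as counts with no test of the group. Of 497 X-linked genes tested, 227 (45.7%) were higher and 67 (13.5%) lower, against 13.3% and 21.4% of 13231 autosomal genes. The median difference was 0.82 for the X, and medians of the 19 autosomes lay between -0.22 and 0.06. The median start gap was -0.64 log2 units for X-linked genes (iPSC below ESC) and the median end gap 0.11. After scaling the median was 0.47 for the X and -0.08 for autosomes. Xist, the RNA that coats an inactive X, went from 17.3 to 383 CPM from ESC and from 13.8 to 10.7 from iPSC, a difference of -4.78 ± 0.54 (Wald adjusted p = 4.29e-17). Tsix, its antisense partner, was higher (3.33 ± 1.39, under the floor in ESC-OB, lost after scaling), and reads of both cannot be told apart without strand. Eif2s3x and Kdm5c, which escape inactivation, were higher (1.01 ± 0.25 and 0.90 ± 0.29, both lost after scaling), Mid1 was lower (-1.56 ± 0.53, also lost), and Kdm6a, Ddx3x, Rlim and Ftx did not pass.

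Y-linked genes could not be tested because the ESC table held nearly no reads of them. Ddx3y, an RNA helicase gene, was at 49.6 CPM in iPSC and 95.9 in iPSC-OB, Eif2s3y at 79.8 and 83.8, Uty at 29.5 and 39.1 and Kdm5d at 10.2 and 29.2. In ESC and ESC-OB the levels of Ddx3y, Uty and Kdm5d were under the floor, and Eif2s3y had no row in the ESC table. Sex chromosome content thus went with cell source, beside line and passage, and its part in the other differences was not tested.

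**Figure D4:**
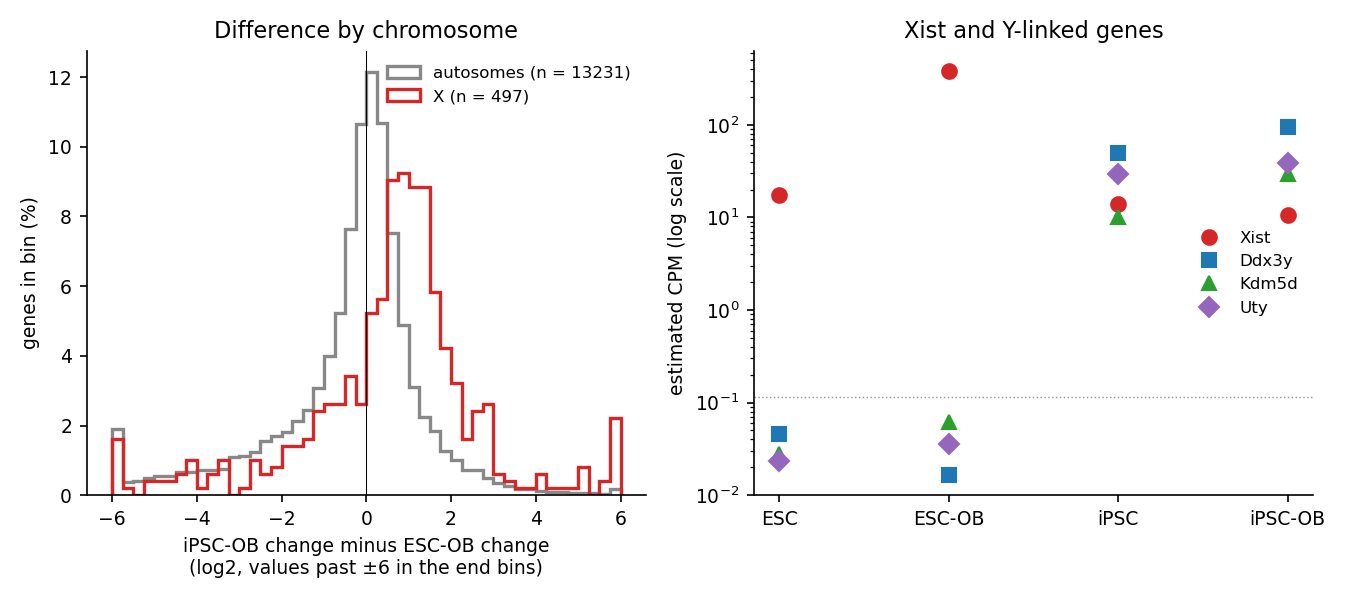
Left, the share of genes (%) in bins of the difference between the courses (log2) for autosomal and X-linked genes. Right, estimated levels (CPM, log scale) of Xist and 3 Y-linked genes in the 4 groups, with the highest floor dotted. The X-linked distribution sits to the right of the autosomal one (medians 0.82 and -0.03), Xist stands at 383 CPM in ESC-OB, and Y-linked genes lie under the floor in ESC and ESC-OB.

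Ribosomal protein and oxidative phosphorylation genes had medians near 0. Cytosolic ribosomal protein genes were higher for 3 and lower for 0 of 33 tested, with a median of 0.27, and oxidative phosphorylation genes were higher for 1 and lower for 0 of 30, with a median of 0.05 that was -0.14 after scaling. None of these 4 calls held after scaling, when 5 oxidative phosphorylation genes were lower. Glycolysis genes were higher for 5 and lower for 3 of 24 tested, with a median of 0.39 that was -0.11 after scaling. Slc2a3, a glucose transporter, was at 1533 CPM in ESC and 130 in ESC-OB, and at 1330 in iPSC and 1278 in iPSC-OB (3.55 ± 0.40, Wald adjusted p = 2.89e-17). Pdk1, which restrains pyruvate oxidation, was lower (-2.44 ± 0.40). Genes of the unfolded protein response were higher for 2 and lower for 6 of 22, with a median of 0.00 (2 higher and 3 lower after scaling). For this list and for glycolysis genes, the share called in either direction was close to the 35.6% of all genes tested. Herpud1, of endoplasmic reticulum degradation, and the stress factor Atf4 differed by -2.33 ± 0.22 and -1.52 ± 0.25.

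Chromatin genes moved in both directions. For comparison, 14.5% of all genes tested were higher and 21.1% lower. DNA methylation enzymes were higher for 6 and lower for 3 of 17 tested. Uhrf1, which recruits maintenance methylation, went from 764 to 20.8 CPM and from 422 to 90.4 (3.03 ± 0.35), Zfp57, which guards imprints, from 416 to 26.9 and from 91.6 to 46.0 (3.01 ± 0.32), and Dnmt3a, a de novo enzyme, from 41.3 to 81.2 and from 249 to 80.2 (-2.55 ± 0.37). Tet1, which oxidises methylcytosine, differed by 2.28 ± 0.42, with a value of -0.05 after scaling. Polycomb genes were higher for 8 and lower for 3 of 28, together close to the 35.6% called of all genes tested. Bmi1, a subunit of the first Polycomb complex, went from 35.5 to 31.3 CPM and from 5.36 to 22.4 (2.30 ± 0.36), and Ezh2, the methyltransferase of the second, differed by 1.49 ± 0.34, lost after scaling. Genes of the let-7 pathway were higher for 8 and lower for 2 of 17 tested: Lin28b, which blocks let-7, was higher (3.00 ± 0.86, lost after scaling), and Hmga2, a let-7 target, was lower (-3.17 ± 0.60) with 24.2 CPM in ESC-OB and 90.5 in iPSC-OB.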

How the data were processed

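The values came from 2 deposited tables of differential expression, ESC-OB against ESC and iPSC-OB against iPSC. Per the submitters' processing notes, reads were aligned with STAR 2.4.2a to mm9 and analysed with DESeq2 in R 3.2.2. Per the file headers each gene has the authors' base mean (a normalised signal over the libraries of a fit), log2 fold change, standard error of that change (log2 units), test score (Wald statistic), p-value and adjusted p-value. The deposited tables hold no values per sample (0 columns), so per-sample values were not analysed here. The direction of the fold changes was read from pluripotency genes.

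Differences, their standard errors and 2-sided Wald z tests with Benjamini-Hochberg adjustment were computed over all 13768 genes with Python 3.11.15, pandas 2.3.3, numpy 2.4.6 and SciPy 1.17.1, tested on simulated data; figures used matplotlib 3.10.9. Depth and the number of libraries were read from the lowest base means. The ESC fit also held sorted GFP+ cells, and the iPSC side held 3 libraries against 2 in the labels. CPM were estimated from the authors' base mean and fold change, with Rn45s left out of the total, and the floor is 3 reads over a group.

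Named genes were 16 fixed reference genes, in each list the 3 highest and 3 lowest past the threshold by the 95% bound nearest 0 (where none passed, the most abundant), the 15 highest and 15 lowest of all, and every Hox, imprinted, X inactivation and Y-linked member; the text prints part of these, and some items are not reported here. Members and lists were chosen with earlier results of these data known. Alternatives changed the base mean minimum, centring, scaling, standard error limit, reference distribution, null difference, threshold and library number.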

Additional observations from a re-analysis of the deposited data

Results flagged for a closer look

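The courses from iPSC and from ESC differed for 4900 genes by the Wald test of the difference itself. The median standard error over all genes tested was 0.40. Of the 15 lowest and 15 highest differences by the bound nearest 0, 14 and 15 are given here as log2 values (iPSC-OB change minus ESC-OB change), with no explanation. The lowest were Fosb (-14.93), Egr1 (-14.39), Fos (-11.41), Egr2 (-13.01), Enpp2 (-12.38), Egr3 (-12.11), Ereg (-11.66), Gbp2b (-11.39), Psmb8 (-10.69), Gbp2 (-10.13), Col1a2 (-9.84), Pcdh7 (-10.57), Tnc (-9.26) and Cdh11 (-9.54). The highest were Gm13128 (11.25), Apom (10.76), Trpm1 (9.58), Xlr3a (8.89), Pramef17 (9.66), A930011O12Rik (9.79), Fmr1nb (8.62), Xlr5a (8.64), Xlr5b (8.45), Xlr5c (8.28), Inpp5d (8.01), Xlr3b (7.12), Gm10768 (8.19), Xlr4a (7.35) and Mcf2 (7.70).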

How the results depend on the processing

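No paired analysis was possible because the deposited tables hold no values per sample, and for the same reason no replicate could be left out. The 4900 genes past the threshold (1996 higher, 2904 lower) became 3384 with a base mean of at least 100 (1837 lower), 3205 with a standard error of at most 0.5 in both tables (1664 lower), 3419 with a t reference distribution (1244 higher) and 1846 when tested against 1 log2 unit (429 higher, 1417 lower). They were 5249 with no minimum, 4930 after centring, 3647 after scaling, 3617 at an adjusted p under 0.01 and 4898 among genes with an adjusted p in both of the authors' deposited tables. With a base mean of at least 100, list medians changed sign for endothelial genes (0.24), X inactivation and escape genes (-0.47) and ribosomal RNA and mitochondrial transcripts (-0.42). A further 17 list medians moved by at least their members' median standard error, among them that of interferon response genes (-1.13). After scaling 14 of 62 list medians changed sign, among them those of naive pluripotency (-0.37), germ cell (-0.33), collagen processing (0.28), cardiac (0.58), endothelial (0.49), adipocyte (0.11), complement (0.000445) and glycolysis genes (-0.11), and, whose medians before scaling were smaller than their members' median standard error, two-cell-like (-1.10), histone (-0.38), neuronal (-0.27), CDK inhibitor (0.36), oxidative phosphorylation (-0.14) and Hox A genes (0.29). Of the named genes past the threshold, 9 changed sign after scaling: Pou5f1 (-2.43), Nanog (-0.997), Esrrb (-1.01), Pth1r (0.10), Lefty2 (-0.16), Etv5 (-0.19), Tet1 (-0.0476), Zim1 (0.0415) and Peg3 (0.27); 11 others, not past it, did so too. Of the 308 tested genes that the naming rule chose, 304 were compared here. After scaling 54 of these kept their sign but lost the call. The call was lost by 38 with the t reference and by 83 when tested against 1 log2 unit. Of the 9 that changed sign, all but Pou5f1 lost the call after scaling too. The cause of these shifts was not tested, except that a stricter minimum or error limit leaves fewer genes to test. With 2 iPSC libraries in place of 3, iPSC levels moved by at most 0.38 log2 units.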

Other observations

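Among the highest differences were genes of the Xlr family on the X chromosome, nuclear proteins related to a component of meiotic chromosomes; the family was chosen after its values were seen. All 10 Xlr genes tested had a higher iPSC-OB change, beside 14.5% of all genes tested and 45.7% of X-linked genes. Their differences were 5.03 to 8.89 log2 units. Their levels were 12.6 to 185 CPM in ESC and 0.106 to 1.59 in iPSC. In the OB groups they were 1.81 to 15.2 CPM from ESC and 3.74 to 21.7 from iPSC. The ranges thus did not overlap before differentiation and overlapped after it. As the family was chosen by its differences, these counts and ranges only describe it. Xlr genes are near-identical copies, so how reads were shared among them is uncertain.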
